A study of Homo sapiens with 6 samples.

Results

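Cytosolic translation initiation and elongation factors were followed at the mRNA level in K562 cells depleted of N6AMT1. The factors were taken by symbol from the gene table, as every gene listed there whose symbol begins with EIF or EEF. The eIF2 kinase genes (EIF2AK), EIF1AY and the symbols that begin with EEF1E1 were left out. This gave 58 of the 19330 genes listed, 44 of them in the initiation complexes and steps and the others in elongation or in neighbouring roles. The rule uses names and no measured values.

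K562 is an established human chronic myelogenous leukemia line. Cells of both conditions were infected with a lentiCRISPR vector carrying Cas9 and a puromycin resistance gene, and the sgRNAs targeted either N6AMT1 (condition sgN6AMT1) or a control gene (condition sgCtrl). The labels name the olfactory receptor genes OR11A1 and OR2M49 as control targets, while the study's methods name EGFP, or OR11A1 and OR2M4. According to the labels the cells were selected for 48 h and collected 10 days after infection. Each condition had 3 RNA-Seq libraries from independent transductions. The sources used here do not say which sgRNA a given library carried. N6AMT1 is a methyltransferase that modifies the release factor eRF1 and other proteins, and the comparison asks how mRNA levels differ when it is depleted.

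During initiation, eIF2 brings the initiator tRNA to the small ribosomal subunit as a complex with GTP, and eIF2B recharges eIF2 with GTP. The scaffold eIF3 and the cap-binding complex eIF4F place the mRNA on that subunit, eIF1 and eIF1A hold it in a state open for scanning, and eIF5B joins the large subunit. During elongation, eEF1A delivers aminoacyl-tRNAs, the eEF1B subunits recharge eEF1A, and eEF2 moves the ribosome along by a codon. Many elongation factor mRNAs, like those of ribosomal proteins, begin with a terminal oligopyrimidine (TOP) tract, through which mTOR and LARP1 control their translation and stability.

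The libraries held 742470, 866894 and 866155 counts in sgCtrl replicates 1 to 3 and 959319, 5526904 and 4062363 counts in sgN6AMT1 replicates 1 to 3. Levels are counts per 1000000 library counts, scaled by TMM (normalized cpm). N6AMT1 itself had normalized counts of 8.06, 5.77 and 10.6 cpm in sgCtrl and 0, 3.29 and 4.11 cpm in sgN6AMT1. These rest on 6, 5 and 9 counts and on 0, 18 and 16 counts, too few for the gene to enter the test. The 0 allows up to 3.13 cpm. The conditions did not overlap, in the direction of the labels. The gene for eRF1, ETF1, had a log2 fold change of -0.05 with an adjusted p of 0.861 in edgeR.

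The K562 identity was checked with marker genes. All 12 of 12 listed K562 markers were detected, with HBG1, a fetal globin that shares reads with its near-identical neighbour HBG2, the most abundant. Of 9 markers of other blood cells, 8 were in the table and CD2 and MS4A1 were at 0 in every library. Their summed level was 37.6, 53.1 and 48.3 cpm in sgCtrl and 63.2, 79.0 and 77.1 cpm in sgN6AMT1, with LYZ, a lysozyme gene, leading. Of 6 epithelial or fibroblast markers 5 had counts, EPCAM leading, at a sum of 163, 187 and 175 cpm in sgCtrl and 175, 134 and 121 cpm in sgN6AMT1. The K562 markers did move with the condition: their sum was 13179, 13279 and 19848 cpm in sgCtrl and 20448, 25972 and 37485 cpm in sgN6AMT1. Their part in the results on the factors was not tested.

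Of the 58 factors, 54 had enough counts to be tested, and 6 of them were past an adjusted p of 0.05 (edgeR quasi-likelihood test, Benjamini-Hochberg over 8324 genes). All 6 fell in sgN6AMT1: EIF5B, EIF3J, EIF4EBP2, EIF1, EIF1AX and EIF4G1. In bulk RNA, fewer cells with an mRNA and less of it per cell cannot be told apart. They make up 11.1% of the tested factors, against 9.85% of all genes called in either direction and 4.76% called lower. No factor was called higher at a background of 5.09%, although 11 factors were higher at an unadjusted p under 0.05 and DESeq2 called 3 of them. For all genes these rules gave 13.2% and 3.12% higher. In either direction 24 factors had an unadjusted p under 0.05 beside 26.2% of all genes, and DESeq2 called 9 beside 6.7%. The factors as a whole had 28 positive and 26 negative log2 fold changes, 25 and 29 with DESeq2 or total counts, and 21 and 33 with GC content and length trends removed. Their median of 0.0066 stood beside 0.0087 for all genes tested, and the trend removal gave -0.08 beside 0.02. The conditions did not overlap for 21 factors, 11 higher and 10 lower in sgN6AMT1, which is 38.9% of those tested against a background of 29.2% of all genes (15.1% higher and 14.1% lower). By group, 3 of the 6 calls were start codon and joining factors, and eIF3, eIF4F and the eIF4E-binding proteins had 1 call each, as the plot of log2 fold changes by complex shows.

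**Figure D1:**
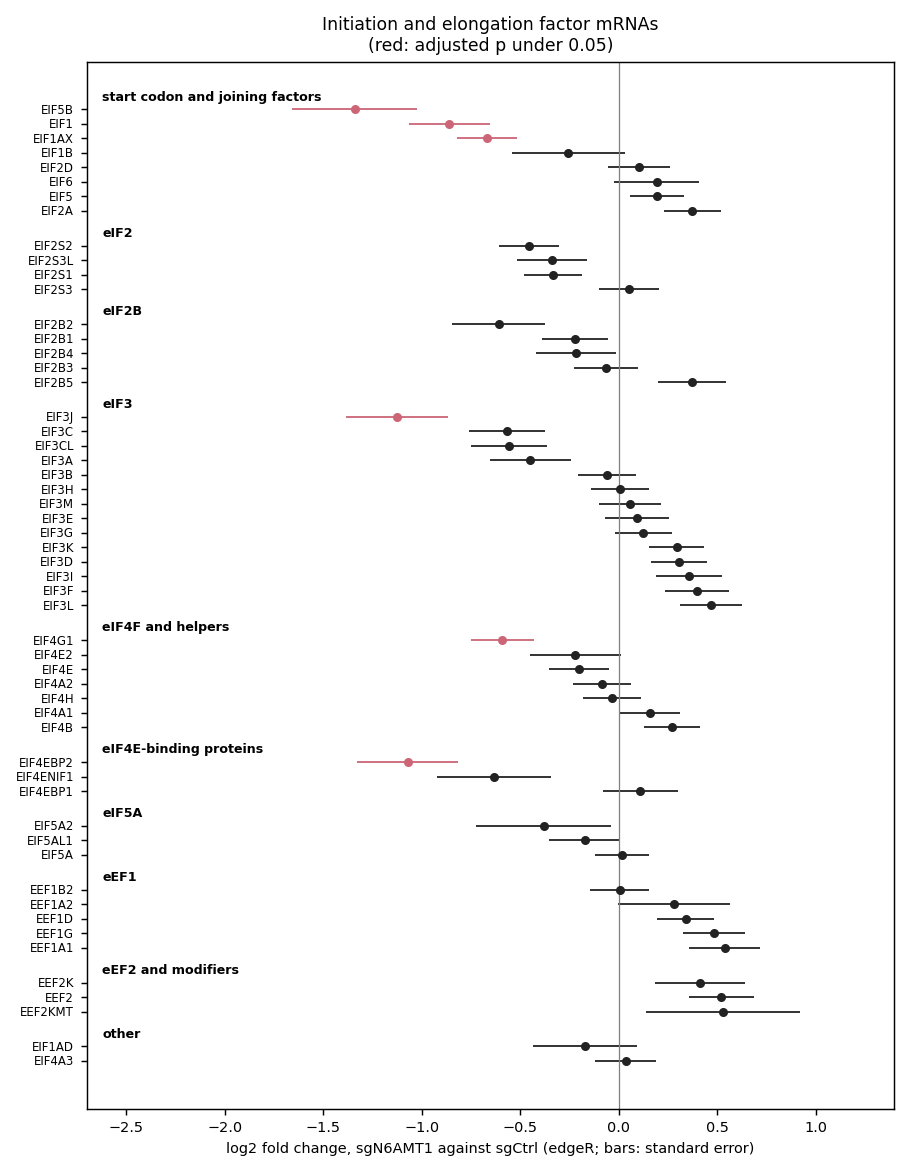
Log2 fold change of each of the 54 tested factors in sgN6AMT1 against sgCtrl (horizontal axis), grouped by complex, with points for the edgeR estimate and bars for its standard error. The 6 factors in red had an adjusted p under 0.05 and lie between -1.34 and -0.59, while EEF1A1, EEF1G, EEF1D and EEF2 lie to the right of 0.

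The calls depended on single libraries. Without sgCtrl replicate 1 edgeR called 1 factor, EIF1AX, and without sgCtrl replicate 2 it called 0, with 12 at an unadjusted p under 0.05. These fits called 3.5% and 2.54% of all genes. Leaving out sgCtrl replicate 3 or sgN6AMT1 replicate 1, 2 or 3 gave 10, 8, 5 and 6 factors, at 8.72%, 11.2%, 5.85% and 6.37% of all genes. The direction of all 6 factors was the same in every one of these fits.

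The start codon and joining factors held 3 of the 6 decreases. EIF5B, the GTPase that joins the large subunit (chr2:99337371-99401326, plus strand, 24 exons, GRCh38), showed the lowest log2 fold change of all factors tested. Its normalized counts were 231, 262 and 144 cpm in sgCtrl and 135, 95.3 and 35.5 cpm in sgN6AMT1, a change from 212 ± 61.3 to 88.5 ± 50.04 cpm (SD, n = 3). The lowest sgCtrl library and the highest sgN6AMT1 library lay close together, and sgN6AMT1 replicate 3 was far below the others. The log2 fold change was -1.34 with a standard error of 0.32, a level 2.53-fold lower (edgeR adjusted p = 0.0137), but DESeq2 gave -1.29 with an adjusted p of 0.178, the highest over 16 alternatives, which began at 3.70e-11.

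EIF1 and EIF1AX encode the small factors that keep the scanning ribosome open and guard the choice of the start codon. EIF1 (chr17:41688885-41692668, plus strand, 4 exons) had 192, 174 and 157 cpm in sgCtrl and 128, 104 and 65.0 cpm in sgN6AMT1. Every sgN6AMT1 library was below every sgCtrl library, and the mean went from 174 ± 17.7 to 98.7 ± 31.5 cpm (SD, n = 3). The log2 fold change was -0.86 ± 0.21 (SE) with an edgeR adjusted p of 0.0142.

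EIF1AX (chrX:20124525-20141838, minus strand, 7 exons) was the most even of the 6 across sgCtrl, at 259, 256 and 249 cpm, and had 165, 180 and 136 cpm in sgN6AMT1. The gap between the conditions was wider than the range within either, and the mean fell from 255 ± 5.43 to 160 ± 22.8 cpm (SD, n = 3). Its log2 fold change was -0.67 ± 0.15 (SE), with an edgeR adjusted p of 0.0118.

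The other members of the start codon and joining group did not pass the threshold. EIF1B, a close relative of EIF1, had a log2 fold change of -0.25 with overlapping libraries (edgeR adjusted p = 0.620). EIF5, which triggers GTP hydrolysis by eIF2 at the start codon, and EIF2A, an alternative carrier of initiator tRNA, were above sgCtrl in all 3 sgN6AMT1 libraries, with log2 fold changes of 0.19 and 0.37. Their edgeR adjusted p-values were 0.399 and 0.109. EIF6, which keeps the ribosomal subunits apart and was the most abundant of the group per length, went from 166 ± 39.4 to 188 ± 65.3 cpm (SD, n = 3) with overlapping libraries. In the group of 8, 4 log2 fold changes were positive and 4 negative, and 2 and 6 after the removal of GC content and length trends.

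**Figure D2:**
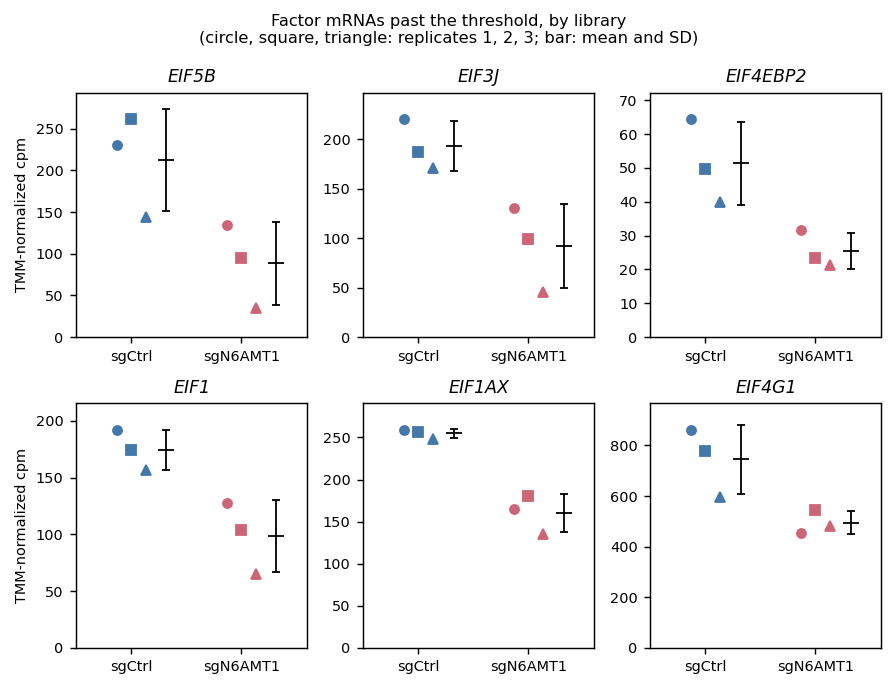
Normalized counts (TMM-normalized cpm, vertical axis from 0) of the 6 factors past the threshold in each of the 3 sgCtrl and 3 sgN6AMT1 libraries, with bars for mean and SD. For all 6 the sgN6AMT1 libraries lie below the sgCtrl libraries, and for EIF5B the nearest libraries are at 144 and 135 cpm.

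In eIF3, the scaffold of the initiating small subunit, 1 of 14 genes was called. EIF3J, a loosely bound subunit that sits near the decoding centre (chr15:44537125-44563029, plus strand, 8 exons), was the gene past the edgeR threshold. It had 220, 187 and 171 cpm in sgCtrl and 131, 99.1 and 46.0 cpm in sgN6AMT1. The conditions did not overlap, and sgN6AMT1 replicate 3 was again the lowest. The mean fell from 193 ± 25.2 to 91.9 ± 42.8 cpm (SD, n = 3), a log2 fold change of -1.13 ± 0.26 (SE) with an edgeR adjusted p of 0.0117, the smallest among the factors.

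Among the core subunits, EIF3A, the largest, and EIF3C had negative log2 fold changes of -0.45 and -0.57, neither past the threshold (edgeR adjusted p = 0.170 and 0.0670). EIF3C had 947, 917 and 579 cpm in sgCtrl and 603, 629 and 420 cpm in sgN6AMT1, so that sgCtrl replicate 3 lay among the depleted libraries. The near-identical copy EIF3CL received 101% to 102% of the EIF3C counts in every library, so the genes are not independent measurements. EIF3L, EIF3K and EIF3D, peripheral subunits of which EIF3D can bind the cap, were higher in all 3 sgN6AMT1 libraries. EIF3L had 462, 412 and 482 cpm in sgCtrl and 580, 541 and 756 cpm in sgN6AMT1, a log2 fold change of 0.47 with an edgeR adjusted p of 0.0642. EIF3K and EIF3D followed with 0.30 and 0.31. EIF3I and EIF3F had 0.36 and 0.40 with overlapping libraries. Over the 14 genes, 9 log2 fold changes were positive and 5 negative (8 and 6 with DESeq2), with a median of 0.08.

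**Figure D3:**
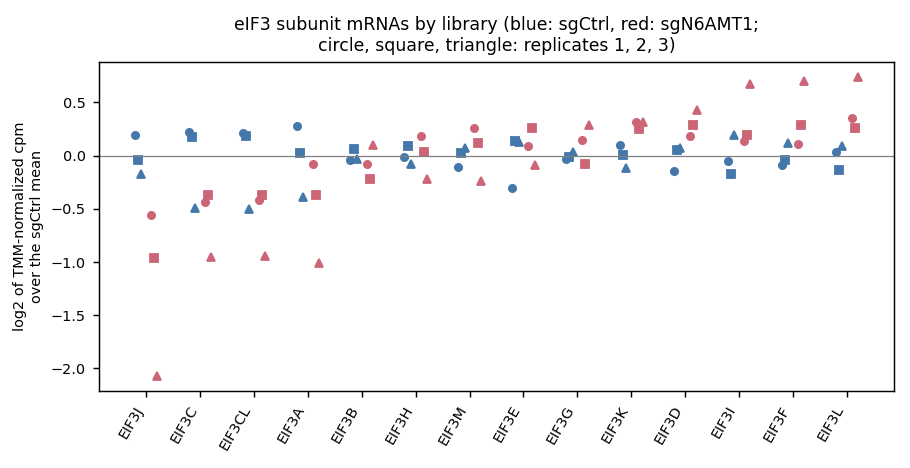
Normalized counts of each eIF3 subunit gene by library, as log2 over the sgCtrl mean (vertical axis), ordered by fold change. EIF3J, EIF3C, EIF3CL and EIF3A lie lowest in sgN6AMT1, most of all in replicate 3, while EIF3L, EIF3F and EIF3I reach furthest above the sgCtrl mean in that same library.

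The trimer eIF2 and its exchange factor eIF2B had no subunit past the threshold. EIF2S2, the beta subunit of eIF2, had 529, 508 and 610 cpm in sgCtrl and 420, 443 and 339 cpm in sgN6AMT1. All sgN6AMT1 libraries were below all sgCtrl libraries, with a log2 fold change of -0.45 and an adjusted p of 0.0620 in edgeR, and DESeq2 called it. EIF2S1, the alpha subunit whose phosphorylation slows translation under stress, went from 198 ± 9.31 to 157 ± 10.8 cpm (SD, n = 3), also without overlap (log2 fold change -0.33, edgeR adjusted p = 0.158). EIF2S3, the tRNA-binding gamma subunit, stood at 0.05. In the eIF2 group, edgeR called 0 of 4 genes, 2 of them had an unadjusted p under 0.05, and DESeq2 called 1.

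EIF2B4 encodes the delta subunit of eIF2B, which is itself named as a substrate of N6AMT1. It had 64.5, 59.99 and 53.1 cpm in sgCtrl and 51.6, 55.7 and 45.3 cpm in sgN6AMT1. The libraries overlapped, and the log2 fold change of -0.22 was near its standard error of 0.20 (edgeR adjusted p = 0.544). The remaining subunits were split. EIF2B2, the beta subunit, went from 54.9 ± 8.49 to 34.3 ± 9.02 cpm (SD, n = 3), and EIF2B5, the catalytic epsilon subunit, from 110 ± 10.4 to 142 ± 22.5 cpm (SD, n = 3). Both pairs of conditions were without overlap, and the edgeR adjusted p-values were 0.110 and 0.170. Of the 5 eIF2B genes edgeR and DESeq2 called 0, with 2 at an unadjusted p under 0.05.

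In eIF4F, the cap-binding complex, the scaffold EIF4G1 fell (chr3:184314495-184335358, plus strand, 33 exons). EIF4G1 had 863, 778 and 595 cpm in sgCtrl and 455, 543 and 483 cpm in sgN6AMT1. The conditions did not overlap, but sgCtrl replicate 3 lay nearer to the depleted libraries than to the other controls. The mean went from 745 ± 137 to 494 ± 45.0 cpm (SD, n = 3), a log2 fold change of -0.59 ± 0.16 (SE) with an edgeR adjusted p of 0.0256. When the deep sgN6AMT1 libraries were thinned to the depth of the others, the edgeR adjusted p was 0.0522, and over all 16 alternatives it ranged from 1.38e-04 to 0.120. The partners of eIF4G1 did not pass the test: the cap-binding protein EIF4E had -0.20, the helicases EIF4A1 and EIF4A2 had 0.16 and -0.08, and the helicase cofactor EIF4B had 0.27. Neither EIF4G2 nor EIF4G3 was among the symbols listed, so they were not analysed here.

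The eIF4E-binding proteins compete with eIF4G for eIF4E and are released by mTOR. EIF4EBP2 (chr10:70404145-70428618, plus strand, 3 exons) had 64.5, 49.6 and 40.1 cpm in sgCtrl and 31.6, 23.4 and 21.3 cpm in sgN6AMT1. No library of one condition reached into the other. The mean fell from 51.4 ± 12.3 to 25.4 ± 5.44 cpm (SD, n = 3), a log2 fold change of -1.07 ± 0.26 (SE) with an edgeR adjusted p of 0.0146. The more abundant EIF4EBP1 stood at 0.11 (adjusted p = 0.767), and EIF4ENIF1, which takes eIF4E into the nucleus, at -0.63 with overlapping libraries (edgeR adjusted p = 0.173).

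No elongation factor passed the edgeR threshold, and EEF1A1, EEF1G, EEF1D and EEF2 had higher values in every sgN6AMT1 library than in any sgCtrl library. EEF1A1, the main carrier of aminoacyl-tRNA (chr6:73489308-73525587, minus strand), had 14983, 15567 and 19070 cpm in sgCtrl and 22912, 22936 and 26190 cpm in sgN6AMT1. The mean went from 16540 ± 2210 to 24013 ± 1886 cpm (SD, n = 3), a log2 fold change of 0.54 ± 0.18 (SE) with an edgeR adjusted p of 0.0620. EEF1A1 has many processed pseudogenes, and how reads that map to several places were counted is not given in the sources used here.

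EEF2, the translocase (chr19:3976056-3985463, minus strand, 15 exons), had 3345, 2873 and 2931 cpm in sgCtrl and 3917, 4167 and 5049 cpm in sgN6AMT1. The conditions did not overlap, and the mean went from 3049 ± 257 to 4378 ± 595 cpm (SD, n = 3). Its log2 fold change of 0.52 ± 0.16 (SE) had an edgeR adjusted p of 0.05001, just above the threshold.

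EEF1G, a structural subunit of the exchange factor eEF1B (chr11:62559596-62574086, minus strand, 10 exons), had 2639, 2653 and 3085 cpm in sgCtrl and 3816, 3833 and 4070 cpm in sgN6AMT1. Here too the libraries separated, with 2793 ± 254 against 3906 ± 142 cpm (SD, n = 3), a log2 fold change of 0.48 ± 0.16 (SE) and an edgeR adjusted p of 0.0555. DESeq2 called all of these, with adjusted p-values of 0.00601 for EEF1A1, 0.0108 for EEF2 and 0.00787 for EEF1G. Over the 16 alternatives the adjusted p went up to 0.259, 0.225 and 0.234 in that order, and 8, 8 and 7 of them were past the threshold. The exchange subunits of eEF1B were not called either: EEF1D had 0.34 without overlap (edgeR adjusted p = 0.146), and EEF1B2 had 765 ± 98.7 and 768 ± 49.3 cpm (SD, n = 3).

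Of the 5 eEF1 genes, edgeR called 0 and DESeq2 called 2, 3 had an unadjusted p under 0.05, and all 5 log2 fold changes were positive, although EEF1B2 turned negative with DESeq2, RLE, total counts or the trends removed. Their median was 0.34, and 0.18 after the removal of GC content and length trends. EEF1A2, the muscle and neuron form, had 0.28 at a mean of only 22.5 cpm in sgCtrl. The modifiers of eEF2, the kinase EEF2K and the methyltransferase EEF2KMT, had 0.41 and 0.53 at low levels with overlapping libraries (edgeR adjusted p = 0.259 and 0.419).

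**Figure D4:**
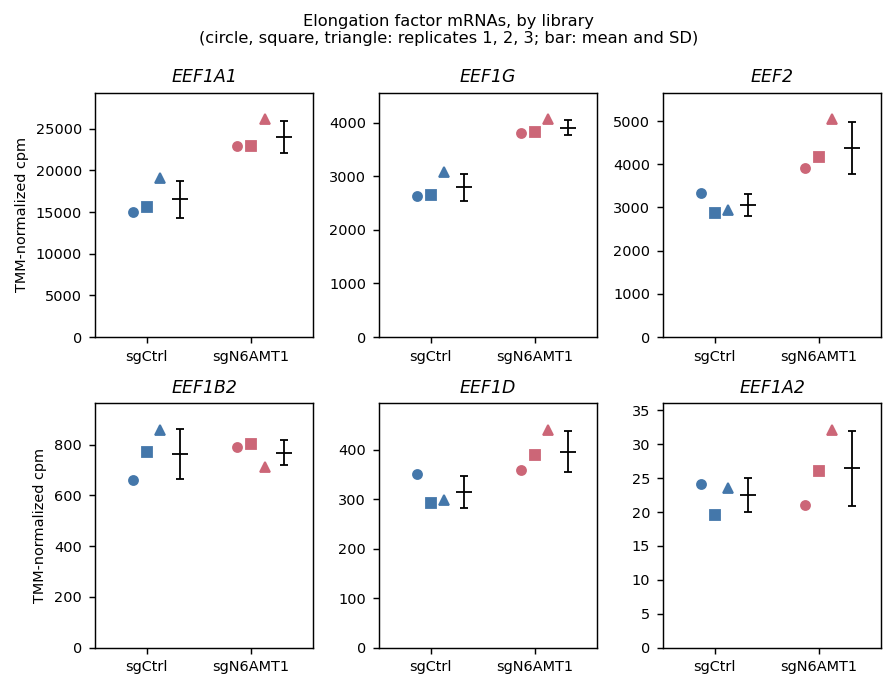
Normalized counts (TMM-normalized cpm, vertical axes from 0) of 6 elongation factor genes in each library, with bars for mean and SD (n = 3). EEF1A1, EEF1G, EEF2 and EEF1D separate by condition, with sgN6AMT1 above sgCtrl, while EEF1B2 and EEF1A2 overlap.

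A share of the counts on nuclear genes gives the same data without TMM. The elongation factors of the eEF1 group and EEF2 took 2.33%, 2.32% and 2.66% of the counts on nuclear genes in sgCtrl and 3.21%, 3.21% and 3.51% in sgN6AMT1. The 95% Wilson intervals, which cover counting error only, were 2.62% to 2.69% for the highest sgCtrl library and 3.17% to 3.25% for the shallowest sgN6AMT1 library. The mean share was 2.44% ± 0.19 against 3.31% ± 0.17 (SD, n = 3), a ratio of 1.36. All EIF genes together took 1.69% ± 0.06 in sgCtrl and 1.58% ± 0.06 in sgN6AMT1 (SD, n = 3), with EIF3C and EIF3CL both included. Out of all counts, with mt-DNA-encoded genes, the shares were 1.62% and 1.56%, a difference of -0.056 percentage points in place of -0.112. All 58 factors took 4.13% ± 0.14 and 4.90% ± 0.12 (SD, n = 3), a difference of 0.77 percentage points, and without EEF1A1 the sums were 2.42% and 2.52%. Out of all counts the difference without EEF1A1 was 0.183 percentage points in place of 0.106.

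The start of the mRNA is shown because TOP mRNAs are defined by their first bases. It is given for 5 known TOP members, EEF1A1, EEF2, EEF1G, EIF4B and EIF3F, and for 5 of the 6 factors that fell. The windows are 30 bases of RefSeq on GRCh38.p14, with 15 on each side of the annotated start, written 5′ to 3′ on the strand of the gene. Capitals mark a C at the start, give or take 1 base, followed by at least 3 further C or T.
EEF1A1: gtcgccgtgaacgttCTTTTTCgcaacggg
EEF2: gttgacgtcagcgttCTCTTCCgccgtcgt
EEF1G: tctcccgggcggcttaCTTTgcggcagcgc
EIF4B: ttgcctcatccgggtCTTTTgcgttctctt
EIF3F: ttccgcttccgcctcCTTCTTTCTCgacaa
EIF1: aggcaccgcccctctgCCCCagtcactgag
EIF4EBP2: ctcccgccttcgcccgCTTCCggtcgtcgt
EIF5B: gcgcactgagaactcacaccatatgtgtcc
EIF3J: cacctccgccgtgctaactcctcgctagct
EIF1AX: gcaaagagtcgcggcgccatttgctgccgc

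The windows lie at chr6:73521018-73521047 for EEF1A1, chr19:3985449-3985478 for EEF2 and chr11:62573877-62573906 for EEF1G, all on the minus strand. EIF4B and EIF3F are at chr12:53006441-53006470 and chr11:7987322-7987351 on the plus strand. The windows of the factors that fell are at chr17:41688870-41688899 for EIF1, chr10:70404130-70404159 for EIF4EBP2, chr2:99337374-99337403 for EIF5B and chr15:44537132-44537161 for EIF3J, on the plus strand, and at chrX:20141824-20141853 for EIF1AX on the minus strand. Of the 58 factors 46 had a window, and 18 of these, 39.1%, carried such a tract on the strand of the gene, against 14.4% of all 27305 genes in the same table. A gene was counted if any of its annotated starts matched. The 27305 genes were not limited to those tested here, so they are an unlike set. Among factors that are not known TOP mRNAs 12 of 40 carried such a tract. The known TOP members EEF1A1, EEF2, EEF1G, EEF1B2, EIF4B and EIF3F all carried it (the start windows of EEF1D, EIF3E and EIF3H were not analysed here), and so did 3 of the 6 factors that fell, EIF1, EIF4EBP2 and EIF4G1, the last at 1 of 3 annotated starts. A match describes the letters and does not show which start K562 cells use.

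All 9 factors known as TOP mRNAs had positive log2 fold changes in edgeR, beside 4228 of all 8324 genes tested. With DESeq2, RLE or total counts 7 of 9 were positive. The list overlaps with the elongation factors described above, as it holds EEF1A1, EEF1B2, EEF1D, EEF1G and EEF2. EIF3H and EIF3E stood at 0.0072 and 0.093 with overlapping libraries. The median of the 9 was 0.34, and edgeR called 0, beside 9.85% of all genes. An unadjusted p under 0.05 was found for 5 of the 9, beside 26.2% of all genes, and DESeq2 called 3, beside 6.7%. The 45 tested factors outside that list had 19 positive and 26 negative values and a median of -0.08, and 13 and 32 with a median of -0.13 after the removal of GC content and length trends. PABPC1, the main poly(A)-binding protein and also a TOP mRNA, went the other way. It had 2486, 2230 and 1833 cpm in sgCtrl and 1664, 1232 and 927 cpm in sgN6AMT1, with a log2 fold change of -0.78 ± 0.19 (SE) and an edgeR adjusted p of 0.0173.

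The mRNA levels of the factors spanned several orders of magnitude per length. In sgCtrl, EEF1A1 had 4710 cpm per kb of transcript, EEF1G 1931, EEF2 966, EEF1B2 946 and EIF4A1 759. EEF2 and EEF1B2 did not differ beyond their spread there, but in sgN6AMT1 EEF2 had 1386 and EEF1B2 951 cpm per kb. At the other end of the tested factors stood EIF5A2, the minor form of the hypusine-bearing eIF5A, at 3.18 cpm per kb, with EEF2KMT at 4.62, EEF2K at 5.62 and EIF4EBP2 at 6.86. The most abundant member of each group per length was EIF2S3 in eIF2, EIF2B3 in eIF2B, EIF3K in eIF3, EIF4A1 in eIF4F, EIF4EBP1 among eIF4E-binding proteins, EIF6 among start codon and joining factors, and EIF5A in its family. None of these leading initiation genes passed the edgeR threshold, and their log2 fold changes lay between -0.06 for EIF2B3 and 0.30 for EIF3K. The lead of EIF2S3 in sgCtrl was within the spread, at 220 ± 32.5 cpm per kb beside 215 ± 21.0 for EIF2S2 (SD, n = 3). The 6 factors that fell ranged from 6.86 cpm per kb for EIF4EBP2 to 138 cpm per kb for EIF4G1 in sgCtrl.

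**Figure D5:**
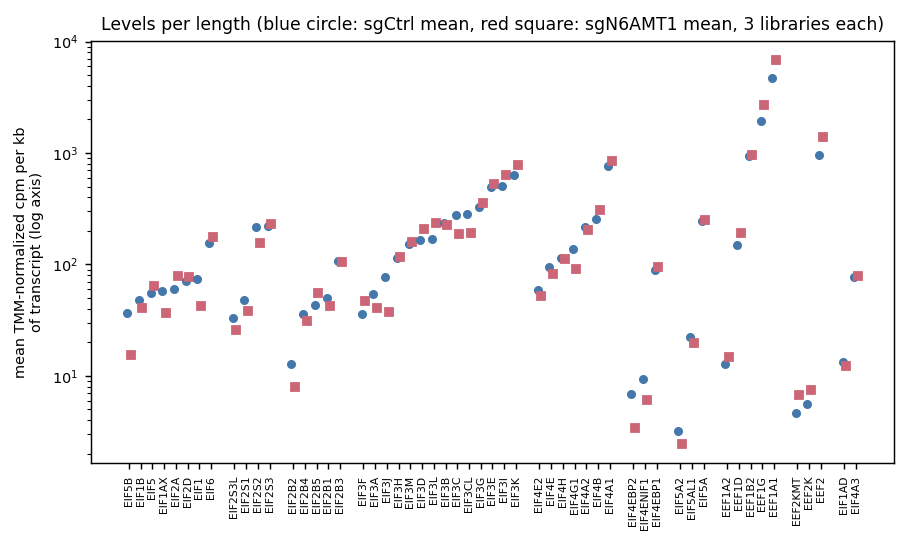
Mean normalized counts per kb of transcript (log axis) of each tested factor in sgCtrl (circles) and sgN6AMT1 (squares), 3 libraries each, grouped by complex and ordered by the sgCtrl level. EEF1A1 stands highest at 4710 and 6837 cpm per kb, and EIF5A2 lowest at 3.18 and 2.46 cpm per kb.

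Paralogs were set against each other within each library, which does not depend on scaling. EIF4A2 counts were 31.9%, 29.3% and 30.9% of EIF4A1 in sgCtrl and 24.2%, 31.0% and 22.7% in sgN6AMT1 (exact permutation test, two-sided, p = 0.3, adjusted over 3 ratios 0.4). EEF1A2 counts were 0.161%, 0.126% and 0.124% of EEF1A1 in sgCtrl and 0.0920%, 0.114% and 0.123% in sgN6AMT1 (exact permutation p = 0.1, adjusted 0.3). EIF5A2 to EIF5A was 5.59% ± 1.70 and 4.31% ± 0.44 (SD, n = 3; exact permutation p = 0.4). With 3 against 3 libraries the smallest p is 0.1, so no ratio could pass 0.05. EIF5A itself had a log2 fold change of 0.02, and EIF4A3, an exon junction helicase related to eIF4A, had 0.04. Counts on the copies EIF5AL1 and EIF2S3L were 23.6% to 29.7% of EIF5A and 8.26% to 12.4% of EIF2S3, and how reads shared with the parent genes were assigned is unknown. Without EIF3CL, EIF5AL1 and EIF2S3L, 6 of 51 tested factors were called.

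EIF4E1B had 0 counts everywhere, a value that at the lowest depth is compatible with up to 4.04 cpm. EIF4E3 and EIF4EBP3, further members of the cap-binding and eIF4E-binding families, had 0 to 7 counts per library. EEFSEC, the elongation factor for selenocysteine, had 2 to 35 counts. These were not tested.

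Genes that work with the factors were listed by role and read from the same fit. Of 42, 41 were tested, with 1 higher and 4 lower, beside 5.09% and 4.76% of all genes. All 4 decreases were among the 10 poly(A)-binding and cap-complex partners, which all had negative log2 fold changes (9 of 10 after the removal of GC content and length trends) with a median of -0.49. Besides PABPC1 these were PABPC4, another poly(A)-binding protein, LARP1, which binds TOP mRNAs, and ABCF1, an ATPase that helps initiation. LARP1 had 421, 315 and 285 cpm in sgCtrl and 214, 216 and 206 cpm in sgN6AMT1. Its sgN6AMT1 libraries were nearly equal and below all controls, with a log2 fold change of -0.68 (edgeR adjusted p = 0.0127). ABCF1 fell from 344 ± 42.7 to 213 ± 43.6 cpm and PABPC4 from 382 ± 30.7 to 265 ± 13.4 cpm (SD, n = 3), with log2 fold changes of -0.70 and -0.53 (edgeR adjusted p = 0.0153 and 0.0246). These calls too depended on single libraries. Without sgCtrl replicate 1 the edgeR adjusted p-values were 0.0776 for PABPC1, 0.0881 for PABPC4, 0.0830 for LARP1 and 0.0714 for ABCF1. Without sgCtrl replicate 2 they were 0.0917, 0.117 and 0.0916 for PABPC1, PABPC4 and ABCF1. PABPC4 was also above 0.05 without sgN6AMT1 replicate 1 or 2, at 0.0564 and 0.0901, and PABPC1 without sgN6AMT1 replicate 2, at 0.0593. With all libraries kept but sgN6AMT1 replicates 2 and 3 thinned, the edgeR adjusted p of PABPC4 was 0.0523. Over 16 alternatives the highest values were 0.0917 for PABPC1, 0.117 for PABPC4, 0.0830 for LARP1 and 0.0916 for ABCF1.

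The gene that rose was PELO, which rescues stalled ribosomes, with a log2 fold change of 0.92 (edgeR adjusted p = 0.0351), and DESeq2 did not call it. Without sgCtrl replicate 1 or 2, or sgN6AMT1 replicate 2 or 3, the edgeR adjusted p of PELO lay between 0.0883 and 0.163, the highest over 16 alternatives. It had 18.8, 19.6 and 29.5 cpm in sgCtrl and 35.8, 42.7 and 48.3 cpm in sgN6AMT1, without overlap. PELO was listed with the release and recycling genes, of which 7 were tested. Their log2 fold changes were 1 positive and 6 negative with a median of -0.11, and 4 and 3 after the removal of GC content and length trends. Of the 6 genes for eIF2 kinases and phosphatase subunits, edgeR and DESeq2 called 0, with 3 positive and 3 negative and 1 at an unadjusted p under 0.05. The 10 mTOR and MNK kinase genes had 0 called and 0 at that unadjusted p, with 4 positive and 6 negative. All 8 enzymes that make hypusine on eIF5A or diphthamide on eEF2 had positive log2 fold changes (6 of 8 after the removal of GC content and length trends) with a median of 0.22, and edgeR and DESeq2 called 0, with 0 at an unadjusted p under 0.05.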

How the data were processed

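RNA-Seq of 3 sgCtrl and 3 sgN6AMT1 K562 samples was used. Per the study's methods and labels, the authors trimmed reads with cutadapt (minimum length 15, quality cutoff 2), mapped them with HISAT2 to GRCh38 and overlapped them with annotation release 84, and deposited a raw count per gene and library. The libraries are described as rRNA-depleted total RNA, while the labels list polyA RNA. The counting tool, strand use and the handling of reads that map to several places are not given in the sources used here.

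Counts were filtered with filterByExpr (minimum count 10), scaled by TMM and fitted with the quasi-likelihood model of edgeR 4.0.16 under R 4.3.3 (glmQLFit, then glmQLFTest) over the 6 libraries without covariates, with Benjamini-Hochberg adjustment over all 8324 genes tested. The common biological coefficient of variation was 0.16. On simulated counts for 8158 genes the fit recovered 98 of 98 genes with a log2 change of 2 and 68 of 98 with 1, and called 5 of 7962 unchanged genes. The simulation gave every gene the same coefficient of variation of 0.16. It therefore does not show how the fit behaves on genes or libraries that vary more. Paralog ratios were compared by exact permutation tests (scipy 1.17.1, Python 3.11.15). A count of 0 was read as allowing 3 counts. Symbols matched GENCODE v44 for 18855 genes, and its canonical transcripts gave lengths, GC content and positions. TOP factors were EEF1A1, EEF1B2, EEF1D, EEF1G, EEF2, EIF3E, EIF3F, EIF3H and EIF4B.

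Alternatives were DESeq2 1.42.0, RLE or total counts, other filters, a replicate block, scaling without mt-DNA-encoded genes, thinning of sgN6AMT1 replicates 2 and 3 to 858710 counts, GC content and length trends removed (mgcv 1.9.3), other thresholds and each library left out. The removal of EIF3CL, EIF2S3L and EIF5AL1 was added after seeing the data.

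The factors and the lists were chosen with earlier results of these data known. Named genes are the factors called, the 5 highest and 5 lowest log2 fold changes, the most abundant member of each complex per length, the paralogs, EIF2B4 and the called partner genes. EIF2S1, EIF2S2, EIF2B2, EIF2B5, EIF3A, EIF3C, EIF3D, EIF3F, EIF3I, EIF2A, EIF1B, EIF5, EIF4B, EIF4E, EIF4ENIF1, EEF1B2, EEF1D and EEF2K were named after their values were seen.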

Additional observations from a re-analysis of the deposited data

How the results depend on the processing

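Depth sets the grain of low values: 1 count was worth 1.34 cpm in sgCtrl replicate 1 and 0.183 cpm in sgN6AMT1 replicate 2. The number of factors called depended on single libraries. It ranged from 0 to 10 over the fits that left out 1 library (0 to 2 higher, 0 to 8 lower). Without sgCtrl replicate 1 EIF1AX was left, and without sgCtrl replicate 2 none. At an adjusted p of 0.01 edgeR called 0 factors, with 24 at an unadjusted p under 0.05, and at 0.1 it called 13, beside 2.57% and 16.2% of all genes. DESeq2, total counts and scaling without mt-DNA-encoded genes each gave 3 factors higher and 6 lower, beside 6.7%, 9.49% and 10.2% of all genes called. The 6 lower with DESeq2 included EIF2S2 in place of EIF5B, while total counts and scaling without mt-DNA-encoded genes kept the 6 of the main test. Without a filter on low counts there were 13 calls, 4 of them higher, beside 8.66% and 4.53% of all genes, in a fit where the median of all genes was 0.12. The causes of these shifts were not tested.

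Replicate numbers were not shown to pair the samples, since the deviations of samples with the same number correlated at -0.001, 0.083 and 0.19. With the replicate block 14 factors were called, 4 higher and 10 lower, beside 14.4% of all genes. After the removal of GC content and length trends 14 were called, 5 of them higher, beside 11.1%, and with the block as well 18 were called, 8 higher and 10 lower, beside 16.4%. These trend fits gave medians of -0.083 and -0.088 over the factors, -0.22 and -0.23 for eIF2, and 0.18 and 0.18 for eEF1. All 6 factors of the main test were called in each of these fits. Leaving out 1 library gave medians of 0.00050 to 0.14 for eIF3 and -0.18 to -0.034 for eIF4F. Without EEF1A1 the difference in share was 0.106 percentage points of the counts on nuclear genes and 0.183 of all counts.

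Directions reversed for genes near 0. EEF1B2 had -0.016 with DESeq2, -0.0062 with RLE, -0.010 with total counts, -0.091 and -0.093 with the trends removed, and -0.090 to 0.096 without 1 library. EIF5A had -0.0054 with DESeq2, -0.00088 with total counts, -0.16 and -0.17 with the trends removed, and -0.028 to 0.050 without 1 library. EIF4A3 had -0.042 after thinning, -0.017 and -0.027 with the trends removed, and -0.097 to 0.098 without 1 library. EIF4EBP1 and EIF6 had -0.13 and -0.014 with the trends removed, -0.12 and -0.033 with the block added, and -0.039 to 0.19 and -0.15 to 0.40 without 1 library. Without 1 library EIF2S3 ranged from -0.034 to 0.175, EIF4A2 from -0.18 to 0.0013, EIF1B from -0.58 to 0.049 and EIF2B3 from -0.20 to 0.074. EIF3H, which appears only on the TOP list, had 0.0072 in the main fit and turned negative with DESeq2, RLE or total counts. Among the other genes listed as named in the methods none changed direction. The planned EIF4G3 to EIF4G1 ratio was not run, as EIF4G3 was not analysed here.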
